A study of Mus musculus with 6 samples.

Results

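The genes described here are 39 mouse genes of glycolysis, lactate handling, the entry of pyruvate into mitochondria and the pentose phosphate pathway, out of 25124 genes in the table of TPM values (an abundance scaled for transcript length and library depth). They were taken by gene symbol, whatever their level or change, and all 39 were found. They were measured in RAW264.7, a mouse macrophage-like cell line, by sequencing of poly(A) RNA. The line used was a control that carries a Cas9 plasmid with no guide sequence, built for comparison with E4BP4 knockout cells, so both groups share that history and come from 1 line. M0 cells (3 libraries) were kept without IL-4, and M2 cells (3 libraries) received 10 ng/ml IL-4, the cytokine used to polarize macrophages toward alternative activation. The medium of both groups held 25 mM glucose and 10% serum. No source used here gives the duration of IL-4 exposure.

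Glucose enters a cell through GLUT transporters and is trapped by hexokinase. Upper glycolysis spends ATP and splits the sugar, with phosphofructokinase as its main control point, and lower glycolysis recovers ATP and ends in pyruvate. Pyruvate is then reduced to lactate and exported, or imported into mitochondria and oxidised by pyruvate dehydrogenase, which PDK kinases switch off. The pentose phosphate pathway branches from glucose-6-phosphate and gives NADPH and ribose. Macrophages activated by microbial products are known for high glycolysis and lactate release, and alternatively activated macrophages for mitochondrial oxidation, although glucose use has been described in them too.

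Recovered read totals ran from 15615639 to 19511192 per library, and each member rested on 29 to 86390 reads per library. All 13 macrophage markers examined were at 1 TPM or more in every library, and their summed level was 4678 to 5175 TPM in M0 and 3863 to 4184 TPM in M2. Of the 46 markers of 7 other cell types in the table, 2 were at 1 TPM or more in every library, Lck and S100a8, and their summed level per type was at most 5.85 TPM in any library. Single macrophage markers went both ways: Adgre1, Mertk and Fcgr1 rose, Cd14, Itgam, Ptprc and Tyrobp fell, and 6 did not pass. Cd14 went from 637 ± 5.66 to 310.4 ± 6.69 TPM, and Mertk from 9.67 ± 0.582 to 19.8 ± 1.72 TPM (SD, n = 3 each). The part of these marker differences in the results was not tested. The labels do not call the replicates separate cultures, so the p-values cover only the spread among these libraries, possibly a technical one. The M0 libraries, all 3, are marked as re-analysed in their labels and 0 of the M2 libraries are, and whatever lies behind that mark cannot be told apart from IL-4. M2 replicate 3 showed the strongest trend of level with transcript length of the 6 libraries (slope -0.066 log2 units per doubling of length, against -0.006 to 0.038 in the others). In bulk RNA, fewer cells that express a gene and less RNA per cell cannot be told apart.

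Of the 17 members of upper and lower glycolysis 13 were lower in the IL-4-treated cells and 0 were higher. The members that rose were Slc2a3, Pfkfb3, Pfkfb4, the lactate transporter gene Slc16a1 and the pentose phosphate genes Rpe and Taldo1. Outside upper and lower glycolysis Slc2a1, Slc16a3, Pdk1, Pdk2, G6pdx and Pgd fell. Of the 39 members 19 fell in M2 and 6 rose, by limma on log2(TPM + 1) at a Benjamini-Hochberg adjusted p under 0.05 over all genes, and 14 did not pass. The members that fell were 48.7% of the 39, where 23.7% of the 11202 genes tested fell, and those that rose were 15.4%, where 20.1% of all genes tested rose. The difference between these shares was not tested. The median log2 fold change of the members was -0.17, and that of all genes tested was -0.03. All 39 passed the filter of at least 1 TPM in at least 3 libraries. Pdk2 passed it through its M0 libraries and 1 M2 library. The 39 transcripts together came to 11332 ± 92.4 TPM in M0 and 9918 ± 45.03 TPM in M2 (SD, n = 3 each), 12.5% less. This sum is weighted by the most abundant members, such as Pkm (2280 TPM in M0, 1923 in M2) and Aldoa (1798 and 1380). It includes members that did not pass. With at least 0.5 log2 units of change asked for as well, 7 members fell and 1 rose, where the shares of all genes tested were 9.11% and 6.13%. That count depends on the scale. Pfkl, counted at -0.51, was at -0.40 on the authors' deposited log2-scale values. Pdk2, not counted at -0.47, was at -0.78 in the authors' own comparison. Without M0 replicate 1, M0 replicate 3 or M2 replicate 1 the number of members that rose was 3. The share of all genes tested that rose was also smaller there, at 15.5%, 14.9% and 17.1%.

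**Figure D1:**
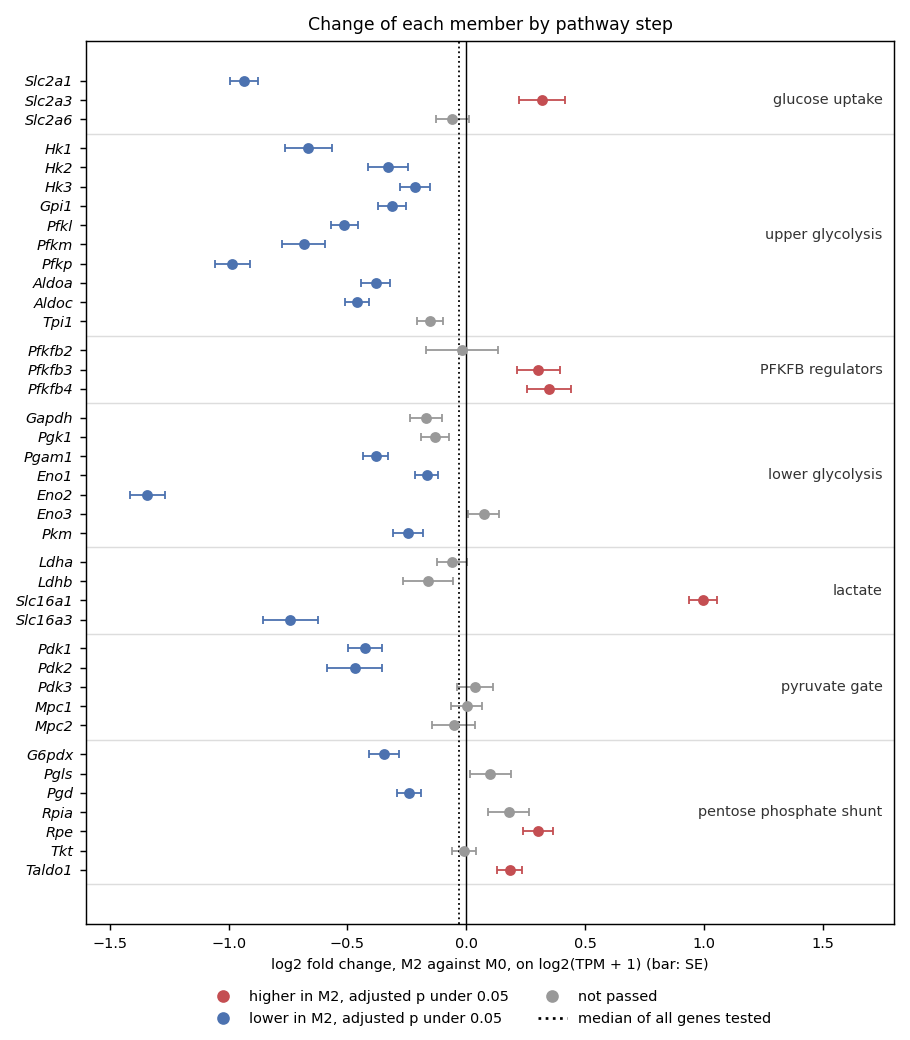
Log2 fold change of each of the 39 members, M2 against M0, on log2(TPM + 1), with its standard error as a horizontal bar, ordered by pathway step. Upper glycolysis lies wholly to the left of 0, with 9 of 10 members past the threshold, and the dotted line marks the median of all genes tested, -0.03.

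In upper glycolysis 9 of 10 members fell and 0 rose (10 of 10 had a negative log2 fold change), in lower glycolysis 4 of 7 fell and 0 rose, and of the 3 PFKFB genes 2 rose and 0 fell. Of 3 glucose transporters 1 fell and 1 rose, and of 4 lactate genes 1 fell and 1 rose. At the pyruvate gate 2 of 5 fell and 0 rose, and in the pentose phosphate pathway 2 of 7 fell and 2 rose. The authors' deposited table, which holds their own comparison, gave 18 members lower and 6 higher in M2 at an adjusted p under 0.05, where it listed 12.7% of 19143 genes as lower and 13.6% as higher. It placed 38 of the 39 members in the same class, the exception being Eno1.

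Promoter sequences were taken for the members because many of them fell together and because the hypoxia-inducible factors are known to act on glycolytic genes through the core motif ACGTG or GCGTG. The sequences are those of RefSeq on GRCm38.p6, the assembly of the mm10 build that the submitters' processing notes name, and a promoter was used where its start equalled that of the authors' transcript model, which held for 35 of 39 members (not for Slc2a3, Hk3, Tpi1 and Pkm). The 4 printed here are the 250 bases before the start, 5′ to 3′ on the strand of the gene, with ACGTG or GCGTG on either strand in capitals. They were picked after the values were seen. Among the members Eno2 had the largest fall and Slc16a1 the largest rise. Slc2a1 is the member among the glucose transporters that fell, and Ldha did not pass the test. In mm10 the authors' models of these genes span chr6:124760053-124769673 (Eno2), chr4:119108745-119137329 (Slc2a1), chr3:104638664-104658462 (Slc16a1) and chr7:46845804-46855627 (Ldha). The printed windows lie upstream, outside the models, at chr6:124769674-124769923 (minus strand), chr4:119108495-119108744 (plus strand), chr3:104638414-104638663 (plus strand) and chr7:46845554-46845803 (plus strand).
Eno2: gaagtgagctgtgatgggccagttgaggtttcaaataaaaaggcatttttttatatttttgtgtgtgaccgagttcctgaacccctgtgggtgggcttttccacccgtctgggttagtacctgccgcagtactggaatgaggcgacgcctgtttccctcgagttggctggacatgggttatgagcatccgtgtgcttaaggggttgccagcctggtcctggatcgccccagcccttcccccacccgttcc
Slc2a1: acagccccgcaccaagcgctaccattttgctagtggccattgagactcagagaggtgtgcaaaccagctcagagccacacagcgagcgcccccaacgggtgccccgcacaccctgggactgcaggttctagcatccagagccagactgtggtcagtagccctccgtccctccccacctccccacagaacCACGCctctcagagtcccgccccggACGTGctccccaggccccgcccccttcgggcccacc
Slc16a1: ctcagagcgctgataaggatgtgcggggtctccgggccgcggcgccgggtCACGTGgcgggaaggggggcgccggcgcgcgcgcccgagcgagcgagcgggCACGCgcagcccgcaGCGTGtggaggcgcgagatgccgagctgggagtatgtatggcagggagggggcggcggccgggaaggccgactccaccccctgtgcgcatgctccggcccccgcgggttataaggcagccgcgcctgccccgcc
Ldha: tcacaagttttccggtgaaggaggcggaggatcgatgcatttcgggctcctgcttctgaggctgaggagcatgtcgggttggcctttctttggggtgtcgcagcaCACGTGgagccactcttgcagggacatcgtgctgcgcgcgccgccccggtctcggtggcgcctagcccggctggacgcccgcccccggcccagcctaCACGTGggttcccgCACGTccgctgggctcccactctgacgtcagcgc

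The Eno2 window held 0 matches, that of Slc2a1 held 2, at 61 and 36 bases before the start, that of Slc16a1 held 4 and that of Ldha 5. Matches overlap where the motif forms the palindrome CACGTG, the E-box core known to be bound by MYC with MAX and by USF proteins, since each palindrome counts as 2 matches. It occurred in Slc16a1, 200 bases before the start, and in Ldha, at 145 and 48 bases. At least 1 match to ACGTG or GCGTG was found in 31 of 35 member promoters (88.6%), in 59.4% of the 8360 promoters of tested genes and in 44.3% of all 17595 matched promoters. The median GC content of these sets was 62.8%, 60.0% and 55.2%, and its part in the motif shares was not tested. Among members the share was 14 of 17 that fell, 4 of 5 that rose and 13 of 13 that did not pass, and the differences between these counts were not tested. Over all tested genes with a matched promoter it was 56.8% of those that fell and 61.8% of those that rose, also not tested. CACGTG was present in 3 of 35 member promoters and in 8.80% of those of tested genes. The 3 were those of Slc16a1, which rose, Ldha, which did not pass, and Pdk2, which fell. The paired letters TTC and GAA set 4 bases apart, the spacing known for STAT6, was present in 3 of 35 (Gpi1, Ldha and Pgd) and in 4.69% of those of tested genes. These matches describe the letters in a window and show no binding.

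Of the glucose transporters, Slc2a1, which encodes GLUT1, the main basal importer in many cells, stood at 157.5, 174 and 164 TPM in M0 replicates 1, 2 and 3 and at 86.7, 88.6 and 82.9 TPM in M2 replicates 1, 2 and 3. The groups did not overlap, and the level in M2 was 48.0% lower (log2 fold change -0.93, SE 0.058, limma adjusted p = 8.96e-06). Slc2a3, which encodes the high-affinity transporter GLUT3, went the other way, from 18.1, 21.8 and 21.8 TPM in M0 to 26.7, 27.8 and 23.1 TPM in M2. Its rise of 25.6% passed (log2 fold change 0.32, SE 0.097, limma adjusted p = 0.0270) but did not pass without M0 replicate 1, M2 replicate 1 or M2 replicate 2 (adjusted p = 0.0948, 0.0733 and 0.0812) or with no filter (0.0682, within 0.00201 to 0.0948 over 14 alternatives). Slc2a6, which encodes GLUT6, a transporter found on internal membranes, stood at 81.2, 80.0 and 81.5 TPM in M0 and 81.2, 82.0 and 70.3 TPM in M2, so the groups overlapped and the lowest value was that of M2 replicate 3 (adjusted p = 0.510). The summed level of the 3 transporters went from 267 ± 9.71 to 190 ± 11.8 TPM (SD, n = 3 each). The share of Slc2a1 in that sum went from 62.0% ± 1.01 to 45.4% ± 1.41 and that of Slc2a6 from 30.3% ± 1.33 to 41.0% ± 0.980, so these transcripts came close to each other in level in the M2 libraries.

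The hexokinases phosphorylate glucose, and all 3 genes fell. Hk1, which encodes the widely expressed form bound to mitochondria, stood at 50.7, 60.7 and 57.5 TPM in M0 and 37.5, 37.8 and 30.4 TPM in M2 (log2 fold change -0.66, SE 0.098, limma adjusted p = 8.14e-04). The groups were apart, and M2 replicate 3 was the lowest library. Hk2, the inducible form, went from 25.1, 29.9 and 28.8 TPM to 21.9, 23.5 and 20.6 TPM, a smaller fall of 21.2% (limma adjusted p = 0.0118). Hk3, the form typical of myeloid cells and the most abundant of the 3 here, went from 82.7, 86.6 and 90.3 TPM to 74.4, 78.5 and 70.2 TPM, 14.0% lower (limma adjusted p = 0.0205). The calls of Hk2 and Hk3 ended without M0 replicate 2 (adjusted p = 0.0554 and 0.0691) or M0 replicate 3 (0.0516 and 0.0938), within 0.00255 to 0.0554 and 0.0118 to 0.0938 over 14 alternatives. Hk1 gave up share within the family, from 32.9% ± 1.19 to 26.7% ± 1.49 (SD, n = 3 each), and Hk3 gained, from 50.7% ± 1.71 to 56.6% ± 1.201.

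Gpi1, glucose-6-phosphate isomerase, which makes fructose-6-phosphate, fell from 267 ± 4.69 to 215 ± 13.6 TPM (SD, n = 3 each; limma adjusted p = 0.00317). The phosphofructokinases commit the sugar to glycolysis, and all 3 genes fell. Pfkp, which encodes the platelet-type subunit, stood at 103, 119 and 112 TPM in M0 and 56.0, 59.6 and 52.0 TPM in M2 (1.998-fold lower, log2 fold change -0.99, SE 0.073, limma adjusted p = 2.19e-05). Pfkm, the muscle-type subunit and the least abundant, went from 15.7, 19.0 and 16.4 TPM to 10.3, 10.7 and 9.48 TPM (log2 fold change -0.68, SE 0.090, limma adjusted p = 4.36e-04). Pfkl, the liver-type subunit, went from 61.5, 66.7 and 67.7 TPM to 45.8, 45.7 and 44.7 TPM (log2 fold change -0.51, SE 0.058, limma adjusted p = 1.96e-04). In each of the 3 genes every M2 library was below every M0 library. Their summed level was 42.5% lower in M2, from 194 ± 12.7 to 111 ± 4.97 TPM (SD, n = 3 each). Within the sum Pfkp went from 57.5% ± 0.606 to 50.1% ± 1.19 and Pfkl from 33.7% ± 1.04 to 40.8% ± 1.35, while Pfkm was at 8.77% ± 0.464 and 9.14% ± 0.179.

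The bifunctional PFKFB enzymes set the level of fructose-2,6-bisphosphate, the activator of phosphofructokinase, and their genes did not follow the fall of the phosphofructokinase genes. Pfkfb4 went from 9.14 ± 0.620 to 11.9 ± 1.15 TPM (SD, n = 3 each; limma adjusted p = 0.0146) and Pfkfb3, the form with the highest kinase activity, from 7.40 ± 0.206 to 9.39 ± 0.975 TPM (limma adjusted p = 0.0255). Pfkfb2 was at 4.51 ± 0.401 and 4.50 ± 1.10 TPM (limma adjusted p = 0.927). In all 3 genes M2 replicate 3 was the lowest M2 library, and without it the adjusted p of Pfkfb4 was 0.00157 and that of Pfkfb3 was 0.00203. The Pfkfb4 call ended without M0 replicate 3 or M2 replicate 1 (adjusted p = 0.0669 and 0.0534), within 0.00124 to 0.0669 over 14 alternatives. That of Pfkfb3 ended without any 1 library other than M2 replicate 3 (adjusted p = 0.0636 to 0.0922) and with no filter (0.0585), within 0.00143 to 0.0922 over 14 alternatives.

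The aldolases cut fructose-1,6-bisphosphate into 2 trioses. Aldoa, the form that dominates in most cells, fell from 1797.7 ± 24.5 to 1379.8 ± 35.1 TPM (SD, n = 3 each; log2 fold change -0.38, SE 0.060, limma adjusted p = 0.00109), the largest change in TPM of any member. Aldoc, the brain-type form, fell from 64.8 ± 0.802 to 46.8 ± 1.31 TPM (log2 fold change -0.46, SE 0.052, limma adjusted p = 2.09e-04). Aldoa held 96.5% ± 0.0864 of aldolase TPM in M0 and 96.7% ± 0.143 in M2. Tpi1, triose-phosphate isomerase, was at 1191 ± 8.29 and 1072 ± 12.5 TPM and did not pass (adjusted p = 0.0516), with every M2 library below every M0 library. With a pseudocount of 0.1 its adjusted p was 0.0411, and leaving out M2 replicate 3 gave 0.0256, within 0.0256 to 0.243 over 14 alternatives. Its model overlaps Spsb2 on the opposite strand (mean TPM 41.2 in M0, 21.9 in M2), and that of Pfkp overlaps Pitrm1 (29.4 and 32.0). Also on opposite strands, Hk3 overlaps Unc5a (0.170 and 0.211), Mpc1 overlaps 4930506C21Rik (4.14 and 4.08) and Rpe overlaps Kansl1l (4.856 and 4.055). No source used here names the strand setting of the counting, and without strand the reads of these pairs cannot be told apart. The model of Tkt overlaps Mir3076 on the same strand (23.0 and 28.4).

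**Figure D2:**
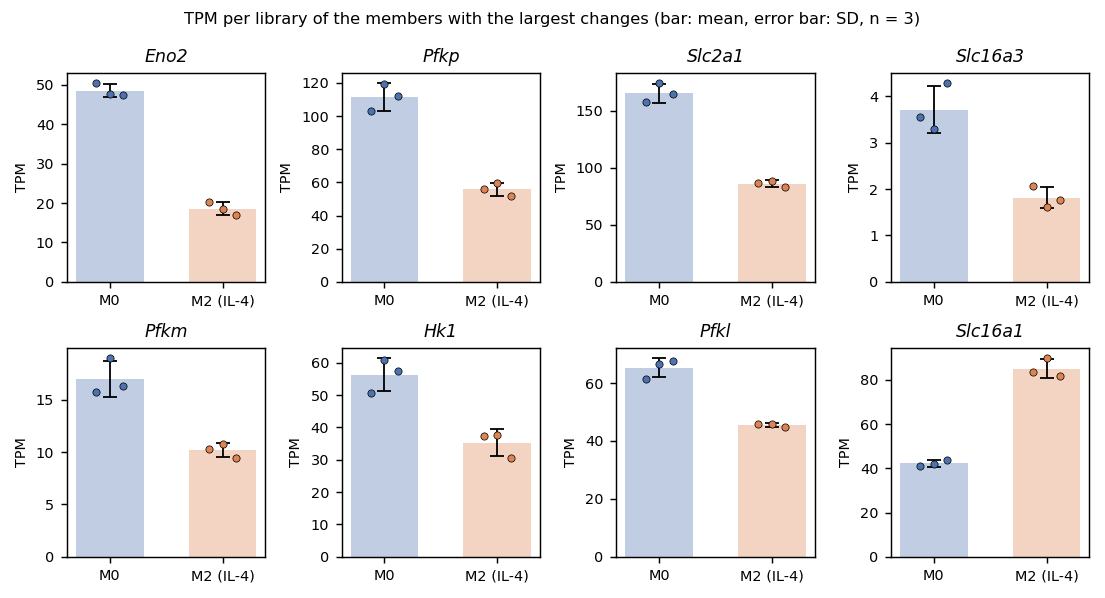
TPM in each library (points), with the mean (bar) and SD (error bar, n = 3), for the 8 members called with a log2 fold change of at least 0.5 in size. Every M2 library lies below every M0 library in 7 genes and above in Slc16a1, where the M2 libraries reach 81.9 to 89.9 TPM.

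In lower glycolysis Eno1, Eno2, Pgam1 and Pkm fell, and Eno3, Gapdh and Pgk1 did not pass. Eno2, which encodes gamma-enolase, the form best known from neurons, stood at 50.4, 47.7 and 47.3 TPM in M0 and at 20.2, 18.5 and 16.97 TPM in M2. It had the lowest log2 fold change of all 39 members (-1.34, SE 0.073, limma adjusted p = 4.49e-06), 61.7% lower in M2. Eno1, the ubiquitous alpha-enolase, went from 337, 352 and 342 TPM to 306, 303 and 308 TPM, 10.99% lower, and Eno3, the muscle-type beta-enolase, was at 27.9, 27.5 and 26.5 TPM in M0 and 27.1, 28.6 and 30.6 TPM in M2 (limma adjusted p = 0.0240 and 0.399). Eno2 thus held 11.6% ± 0.507 of enolase TPM in M0 and 5.26% ± 0.468 in M2 (SD, n = 3 each), below the 8.15% ± 0.458 of Eno3 in M2. The Eno1 call ended with median-ratio scaling (adjusted p = 0.101), with the authors' deposited log2-scale values (0.109), and without M0 replicate 2, M0 replicate 3, M2 replicate 1 or M2 replicate 2 (0.119, 0.0856, 0.0565 and 0.0571), within 0.0149 to 0.119 over 14 alternatives. Eno1b, a near-identical copy of Eno1 that is no member and was looked up after the values were seen, was at 63.9 ± 1.42 and 57.5 ± 3.59 TPM (limma adjusted p = 0.0741), and reads may be split between the copies.

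Pgam1, phosphoglycerate mutase, fell by the same measure as Aldoa, from 91.6 ± 2.21 to 70.1 ± 1.97 TPM (SD, n = 3 each; log2 fold change -0.38, SE 0.052, limma adjusted p = 5.33e-04). Pkm, pyruvate kinase M and the most abundant member, fell from 2280.3 ± 68.2 to 1923 ± 60.8 TPM (limma adjusted p = 0.0144). Its call ended without the filter (adjusted p = 0.0965), with median-ratio scaling (0.0787), and without M0 replicate 2 or M0 replicate 3 (0.0821 and 0.0618), within 0.00363 to 0.0965 over 14 alternatives. The files give 1 model per gene, so the splice forms PKM1 and PKM2 were not separated. Gapdh, glyceraldehyde-3-phosphate dehydrogenase and a common reference gene, was at 989.7 ± 68.2 and 878 ± 24.3 TPM and did not pass (adjusted p = 0.0668; 0.0420 with the replicate number as a block, within 0.0420 to 0.223 over 14 alternatives). Pgk1, phosphoglycerate kinase, was at 560.4 ± 6.48 and 511 ± 27.7 TPM and did not pass (adjusted p = 0.0980). Gapdh, Pgk1 and Tpi1 each had every M2 library below every M0 library, by 8.74% to 11.3% of the mean. The share of all genes tested whose groups did not overlap was not counted, so no weight is put on this. Genes such as Gapdh and Ldha have many processed copies in the mouse genome, and no source used here says how reads that match several places were counted.

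Lactate genes split between the enzyme and the transporters. Ldha, the lactate dehydrogenase subunit that favours lactate formation, was at 1498, 1528 and 1464 TPM in M0 and 1374, 1432 and 1504 TPM in M2, so the groups overlapped (log2 fold change -0.06, SE 0.063, limma adjusted p = 0.472). Ldhb, the other subunit, was at 2.90 ± 0.355 and 2.48 ± 0.163 TPM (SD, n = 3 each; adjusted p = 0.234), and Ldha held 99.8% of the summed TPM in either group. Slc16a1, which encodes the proton-coupled lactate and pyruvate carrier MCT1, stood at 40.9, 42.1 and 43.7 TPM in M0 and 83.7, 89.9 and 81.9 TPM in M2. It had the highest log2 fold change of the members (0.99, SE 0.059, limma adjusted p = 6.95e-06), and the groups were far apart. Slc16a3, which encodes MCT4, the exporter known from highly glycolytic cells, went from 3.55, 3.30 and 4.28 TPM to 2.06, 1.62 and 1.76 TPM (log2 fold change -0.74, SE 0.12, limma adjusted p = 0.00105). That fall of 51.1% rested on 387 reads in all M0 and 207 in all M2 libraries. Slc16a1 was the more abundant of the pair in both groups, with 91.9% ± 0.830 of their TPM in M0 and 97.9% ± 0.317 in M2. Bsg, basigin, the chaperone that both carriers need at the cell surface and no member, was at 228 ± 8.34 and 205 ± 9.38 TPM and did not pass (adjusted p = 0.0515).

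At the pyruvate gate the kinases that inactivate pyruvate dehydrogenase fell in part, and the carrier did not change detectably. Pdk1, the kinase best known as a hypoxia target, fell from 34.4 ± 0.766 to 25.4 ± 2.02 TPM (SD, n = 3 each; log2 fold change -0.43, SE 0.071, limma adjusted p = 0.00147). Pdk2, the widely expressed form in tissues, fell from 1.753 ± 0.0241 to 0.995 ± 0.230 TPM, on 174 and 107 reads (limma adjusted p = 0.00987). Pdk3 was at 27.3 ± 2.41 and 27.9 ± 1.10 TPM (adjusted p = 0.730). Pdk1 was the leading kinase transcript in each M0 library, with 54.3% ± 1.60 of PDK TPM, and 46.7% ± 2.42 in M2, where Pdk3 held 51.5% ± 2.75. In M2 replicate 1 Pdk1 still led, with 49.2% against 48.5% for Pdk3, and in M2 replicates 2 and 3 Pdk3 led. Mpc1 and Mpc2, the subunits of the mitochondrial pyruvate carrier, were at 18.1 ± 0.580 and 59.7 ± 4.01 TPM in M0 and at 18.1 ± 0.775 and 57.7 ± 6.91 TPM in M2 (adjusted p = 0.994 and 0.662).

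**Figure D3:**
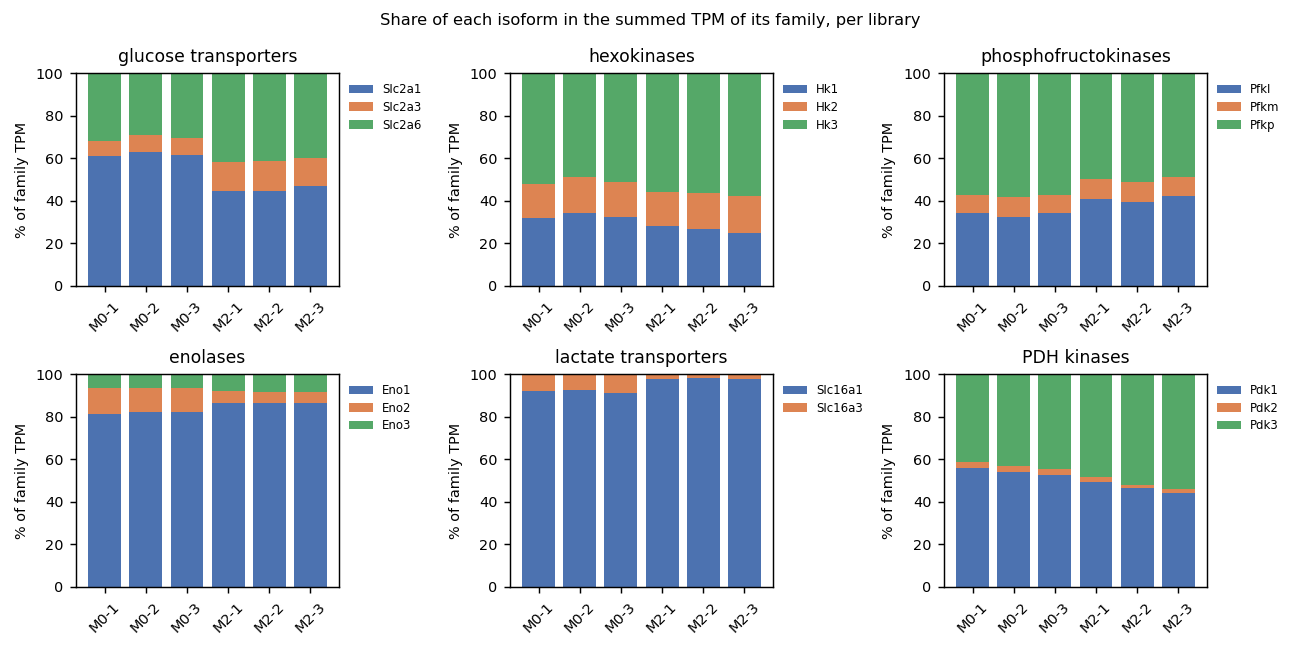
Share of each isoform in the summed TPM of its family, in percent, for each M0 and M2 library (stacked bars, 1 per library, numbered by replicate). The share of Slc2a1, Pfkp, Eno2, Slc16a3 and Pdk1 is smaller in each M2 library than in any M0 library.

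The pentose phosphate pathway divided into its oxidative arm, which makes NADPH, and its non-oxidative arm, which exchanges sugars with glycolysis. G6pdx, glucose-6-phosphate dehydrogenase, the entry enzyme, fell from 167.5 ± 2.54 to 132 ± 9.60 TPM (SD, n = 3 each; log2 fold change -0.35, SE 0.063, limma adjusted p = 0.00243). Pgd, 6-phosphogluconate dehydrogenase, the other NADPH-forming enzyme, fell from 222 ± 6.15 to 187 ± 2.82 TPM (log2 fold change -0.24, SE 0.050, limma adjusted p = 0.00457), and Pgls, the lactonase between them, was at 134 ± 15.1 and 143 ± 8.97 TPM (adjusted p = 0.376). In the non-oxidative arm Rpe, ribulose-phosphate epimerase, rose from 53.2 ± 1.70 to 65.9 ± 4.16 TPM (log2 fold change 0.30, SE 0.063, limma adjusted p = 0.00460). Taldo1, transaldolase, rose from 513 ± 7.29 to 582 ± 15.0 TPM (limma adjusted p = 0.0215), a call that ended without M0 replicate 1, 2 or 3 (adjusted p = 0.0581, 0.102 and 0.0735, within 0.0152 to 0.102 over 14 alternatives). Rpia, ribose-5-phosphate isomerase, was at 30.1 ± 2.32 and 34.2 ± 3.31 TPM, and Tkt, transketolase, at 211 ± 7.10 and 209 ± 5.07 TPM, and neither passed (adjusted p = 0.122 and 0.890). The summed level of the 7 genes was 1330.3 ± 24.9 and 1354 ± 12.5 TPM, a change of 1.77%, where that of upper glycolysis was 19.8% lower, that of lower glycolysis 14.0% lower and that of glucose uptake 28.9% lower.

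By level, Pkm, Aldoa, Ldha and Tpi1 were above 1000 TPM in every library, followed by Gapdh, which was above that mark in M0 replicate 1 only. Pdk2, Ldhb, Slc16a3 and Pfkfb2 were below 10 TPM in every library. The order of the first pair, Pkm above Aldoa, held in every library. Aldoa was above Ldha in each M0 library and below it in each M2 library. In M2 replicates 1, 2 and 3 Aldoa was at 1373, 1349 and 1418 TPM and Ldha at 1374, 1432 and 1504 TPM. The ranges of these genes overlapped in M2, and in M2 replicate 1 their values were almost equal. The 39 transcripts made up 2.03% to 2.07% of all listed TPM in M0 libraries and 1.78% to 1.81% in M2 libraries.

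Genes of the surrounding pathways were examined in 6 lists of 112 genes in all, of which 76 passed the filter, 20 rose (26.3%) and 18 fell (23.7%), where 20.1% of all genes tested rose and 23.7% fell. These shares lie near those of all genes, and the counts of single lists rest on few genes. Their differences from all genes were not tested. Where 5 or fewer genes of a list moved in 1 direction, those named without values complete the count. They were chosen after their values were seen, and their calls under each alternative are not reported here. Among glycolysis isoforms and side enzymes, 3 of 11 rose and 1 fell: Tigar, a fructose-2,6-bisphosphatase, went from 16.3 ± 0.177 to 24.1 ± 1.68 TPM (SD, n = 3 each; limma adjusted p = 4.39e-04), Pgam5, a mitochondrial phosphatase of the phosphoglycerate mutase family, from 27.2 ± 0.929 to 38.3 ± 2.03 TPM, Adpgk, the ADP-dependent glucokinase, rose too, and Slc2a8, which encodes GLUT8, fell from 11.2 ± 0.0618 to 6.88 ± 0.385 TPM. Of 5 tested genes of monocarboxylate handling, Slc16a13 and Slc16a6, relatives of Slc16a1, rose from 15.6 ± 0.307 to 23.4 ± 1.52 TPM and from 12.2 ± 0.666 to 17.2 ± 0.320 TPM. Slc16a10, an aromatic amino acid transporter of the same family, fell from 37.2 ± 3.69 to 28.1 ± 1.57 TPM. In the pyruvate dehydrogenase complex and its regulators 3 of 9 rose and 0 fell. Dld, the E3 subunit, went from 139 ± 4.59 to 173 ± 9.86 TPM (limma adjusted p = 0.00305), Pdhx, the E3-binding subunit, from 19.3 ± 1.19 to 23.0 ± 1.11 TPM and Pdp1, the phosphatase that opposes the PDK kinases, from 3.26 ± 0.344 to 4.28 ± 0.113 TPM. The Pdhx call ended without M0 replicate 1, M0 replicate 3 or M2 replicate 2, and that of Pdp1 without these or M2 replicate 1 and with no filter. Their adjusted p ran over 0.0108 to 0.0948 and 0.00384 to 0.119 across the alternatives.

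Among pentose phosphate side enzymes and other NADPH sources 4 of 16 rose (25.0%) and 3 fell (18.8%). Of all genes tested 20.1% rose and 23.7% fell. Prps1, which turns ribose-5-phosphate into the precursor of nucleotides, rose from 62.2 ± 2.66 to 81.1 ± 4.25 TPM (SD, n = 3 each; limma adjusted p = 0.00131), as did Dera, Idh1 and Mthfd1. Mthfd2, a mitochondrial folate enzyme, fell from 156 ± 6.81 to 109 ± 5.41 TPM, Aldh1l1, a cytosolic folate enzyme, from 10.1 ± 0.844 to 7.09 ± 0.398 TPM, and Idh2 fell too. In the glycogen, hexosamine and glycerol branches 8 of 16 fell and 2 rose, with a median log2 fold change of -0.21. Pygl, a glycogen phosphorylase gene, fell from 5.83 ± 0.544 to 2.73 ± 0.1004 TPM (limma adjusted p = 1.76e-04) and Gys1, glycogen synthase, from 20.0 ± 1.08 to 10.97 ± 1.11 TPM (limma adjusted p = 1.54e-04). Pygb, a more abundant phosphorylase gene named after its values were seen, was at 60.9 ± 2.66 and 55.9 ± 3.88 TPM. It did not pass (limma adjusted p = 0.170). Pgm2, phosphoglucomutase 2, fell from 41.7 ± 1.21 to 26.6 ± 1.04 TPM and Gfpt1, the entry enzyme of hexosamine synthesis, from 17.3 ± 1.28 to 11.9 ± 1.70 TPM. Pgm2l1, glucose-1,6-bisphosphate synthase, rose from 4.80 ± 0.253 to 9.86 ± 0.923 TPM, and Gnpnat1 rose too.

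Regulators of glycolytic transcription and glucose uptake went both ways, with 6 of 19 that rose (31.6%) and 5 that fell (26.3%). Of all genes tested 20.1% rose and 23.7% fell, and the differences were not tested. Myc, a transcription factor gene with many metabolic targets, had the largest change of any gene in the 6 lists (log2 fold change 2.05, limma adjusted p = 9.07e-07) and went from 6.43 ± 0.503 to 29.8 ± 1.21 TPM (SD, n = 3 each). Txnip, which encodes an arrestin that restrains glucose uptake, fell from 102.5 ± 3.07 to 62.5 ± 1.01 TPM (limma adjusted p = 2.00e-05), and Usf1, which encodes an E-box factor, from 42.7 ± 2.40 to 27.3 ± 1.25 TPM (limma adjusted p = 1.38e-04). Arnt, Egln1 and Usf2 also fell. Epas1, which encodes HIF-2 alpha, another oxygen-regulated HIF subunit, rose from 22.3 ± 1.21 to 29.0 ± 3.80 TPM (limma adjusted p = 0.0155), and Arrdc4, a relative of Txnip, from 1.47 ± 0.0952 to 2.24 ± 0.0210 TPM (limma adjusted p = 0.00976). Vhl, Max and Ppargc1b also rose. These regulators other than Myc, Txnip and Usf1 were named after their values were seen. Hif1a, the oxygen-regulated subunit of HIF-1, was at 49.1 ± 2.59 and 43.7 ± 3.67 TPM and did not pass (adjusted p = 0.0955), and that protein is known to be controlled mainly by its stability. Whether any of these transcripts bears on the members was not tested.

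**Figure D4:**
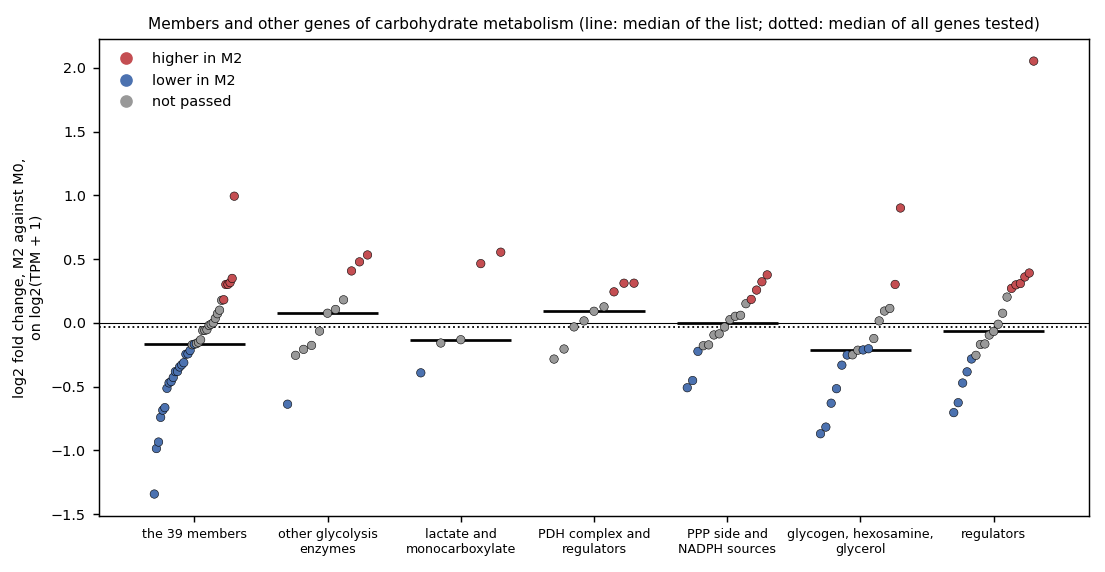
Log2 fold change, M2 against M0, on log2(TPM + 1), of the 39 members and of the tested genes of 6 surrounding lists, each gene a point, with the median of each list as a bar. The medians run from -0.21 in the glycogen, hexosamine and glycerol branches to 0.09 in the pyruvate dehydrogenase list, and Myc is the highest point at 2.05.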

How the data were processed

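Poly(A) RNA of 6 RAW264.7 libraries (3 M0, 3 M2), from 200 ng of total RNA each per the labels' protocols, was sequenced. Tools listed without roles in the submitters' processing notes are STAR 2.7.5a, HOMER 4.11.1, bcl2fastq and DESeq2, with the mm10 build. The authors deposited TPM values for 25124 genes, per the file headers. Their second deposited table holds values per library, read as log2-scale from their range, and the authors' own test, with p-value columns and a fold on the log2 scale whose positive sign means higher in M2.

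The 11202 genes that reached 1 TPM in 3 or more libraries were fitted by limma 3.58.1 in R 4.3.3 on log2(TPM + 1), with a mean-variance trend and Benjamini-Hochberg adjustment, called at an adjusted p under 0.05. This scale understates changes of low genes. Reads were recovered from TPM times length, which in each library fell on multiples of a single unit (100% within 0.1 read). The fit was tested on simulated data. Means, SDs and folds in the text are of TPM. Per-library values are given for members called with a log2 fold change of at least 0.5 in size and for their families, and in the 6 lists genes past that size, or the 3 with the lowest adjusted p, are named. Members and lists were chosen with earlier results of these data known. Same-numbered libraries deviated together in 1 of 3 pairs, so numbers were not taken to pair samples. Alternatives were another pseudocount, filters, scaling, limma-voom, the authors' values, the replicate block, each library left out, and, added after seeing the data, removal of each library's length trend. Python 3.11.15 with pandas 2.3.3, numpy 2.4.6 and matplotlib 3.10.9 made tables and plots.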

Additional observations from a re-analysis of the deposited data

How the results depend on the processing

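Over 14 alternatives, 15 falls and 2 rises among the 25 called members kept their call wherever they were tested, 4 falls and 4 rises lost it under at least 1, and 0 called members changed sign. The 8 were Slc2a3, Hk2, Hk3, Pfkfb3, Pfkfb4, Eno1, Pkm and Taldo1, each lost without at least 1 library. Members called lower numbered 15 to 20 and members called higher 3 to 6 with 1 library left out, and 17 to 20 and 4 to 6 under the other alternatives. Of all genes tested, 16.5% to 25.4% fell and 14.9% to 25.5% rose with 1 library left out. Under the other alternatives 11.8% to 25.8% of them fell and 10.0% to 27.4% rose. With the replicate number as a block 20 members fell and 6 rose, and 2634 of all genes fell and 2236 rose. Correlations of deviations between same-numbered M0 and M2 libraries were -0.033, 0.211 and 0.029, and those between the other pairs ran from -0.202 to 0.166. With 3 libraries per group these values cannot settle whether the numbers pair the samples. At a filter of 5 TPM, 35 members were tested and 17 fell, where 24.6% of all genes tested did.

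Directions that turned were all of members that did not pass. Pfkfb2 had a log2 fold change of 0.0048 with median-ratio scaling, 0.0046 on the authors' deposited log2-scale values, 0.014 with the length trend removed, 0.029 without M0 replicate 2 and 0.16 without M2 replicate 3 (-0.11 to 0.16 over libraries left out). Tkt had 0.021, 0.027 and 0.037 under the first 3 of these, 0.015 without M0 replicate 3 and 0.00056 without M2 replicate 3 (-0.033 to 0.015). Mpc1 had -0.0065 with the length trend removed, -0.017 without M0 replicate 2, -0.0064 without M0 replicate 3 and -0.033 without M2 replicate 3 (-0.033 to 0.025). Slc2a6 had 0.012 without M2 replicate 3 (-0.098 to 0.012), Pdk3 -0.032 without M0 replicate 1 (-0.032 to 0.091) and Mpc2 0.035 without M2 replicate 2 (-0.14 to 0.035). The cause was not tested. Depth limits Ldhb (151 reads in M0, 139 in M2), Pdk2 (174 and 107) and Slc16a3 (387 and 207).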
